A study of Mus musculus with 6 samples.

Results

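Integrins and laminins were taken as all genes on the array with a symbol of the form Itga or Itgb plus a number or letter, or Lama, Lamb or Lamc plus a number. This gave 35 of the 19057 annotated gene symbols: 17 integrin alpha chains on 47 probes, 9 integrin beta chains on 17 probes and 9 laminin chains on 19 probes. The measurements came from 3T3-L1 cells, a mouse preadipocyte line differentiated into adipocytes in culture. Both groups had been differentiated in a medium that itself contained dexamethasone (DEX, a synthetic glucocorticoid) with methylisobutylxanthine and insulin, were returned to drug-free medium, and then spent 24 hours in medium with 5% stripped serum. One group then received 500 nM DEX and the other only the solvent, ethanol, and their total RNA after 6 hours was read on 3 MouseWG-6 BeadChip arrays per group. It is not said in the labels or Methods that the triplicates came from separate dishes, so every p-value refers to the variation among these 6 samples, part or all of which can be technical.

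Integrins are receptors of the cell surface made of 1 alpha and 1 beta chain, and the alpha chain largely sets which matrix protein is bound. Laminins are cross-shaped proteins of 1 alpha, 1 beta and 1 gamma chain that, together with type IV collagen, build the basement membrane, a sheet that surrounds each adipocyte in fat tissue. Differentiation of 3T3-L1 cells is known for an exchange of the fibronectin-binding alpha5 integrin for the laminin-binding alpha6 integrin.

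In this comparison 1 of the 17 testable genes (5.88%) passed the test at 6 hours, beside 7.58% of all tested genes. DEX lowered Itga11, the alpha chain of a receptor for fibrillar collagen in fibroblasts and other mesenchymal cells, by 0.90 on the log2 scale. Itgb5, a beta chain that pairs with alpha v, was lower by 0.56. Itga5, the alpha chain of the fibronectin receptor, was higher by 0.58. Each missed the threshold in the fit without a block and passed it when the replicate number was used as a block. Lamb1, a beta chain of most basement membrane laminins, had the largest change of the 17 genes, 1.02, which did not pass and was 0.53 without 1 of the DEX arrays.

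With the replicate number as a block, 2 integrin genes were called lower, although neither labels nor Methods state a pairing. The sequences just upstream of their start sites are shown to give the context in which these genes start. They are the 250 bases before the RefSeq start, build GRCm38.p6, plus strand, chr9:62677605-62677854 for Itga11 and chr16:33829415-33829664 for Itgb5, written 5′ to 3′. Capitals mark the matches to the motifs listed next.
Itga11: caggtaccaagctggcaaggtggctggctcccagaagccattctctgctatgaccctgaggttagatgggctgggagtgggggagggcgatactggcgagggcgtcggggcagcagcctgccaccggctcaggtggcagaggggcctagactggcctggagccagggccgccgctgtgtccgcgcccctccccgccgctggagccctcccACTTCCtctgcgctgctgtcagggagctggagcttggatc
Itgb5: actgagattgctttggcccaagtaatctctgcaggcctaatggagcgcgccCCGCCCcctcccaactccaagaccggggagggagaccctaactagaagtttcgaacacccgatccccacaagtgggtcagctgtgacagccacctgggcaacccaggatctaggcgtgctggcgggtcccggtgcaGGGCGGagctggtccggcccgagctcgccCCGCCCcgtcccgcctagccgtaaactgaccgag
The capitals in Itga11 are 1 match to the Ets motif GGAAGT, read on the minus strand, and those in Itgb5 are 3 matches to the GC box GGGCGG. Each motif was searched on both strands. Promoters were found in the RefSeq table for 23 of the 35 genes (26 promoters) and for 11 of the 17 tested genes (12 promoters). The palindromic glucocorticoid response element, the half-site AGAACA followed after 3 free bases by its reverse complement, was in 0 of the 26 and in 0.009132% of all 32851 promoters of this length. The half-site alone, which any full element also contains, was in 16.67% of the 12 promoters of tested genes. It was in 19.23% of the 26 and in 16.08% of all. The AP-1 motif TGANTCA was in 0 of the 12, in 3.846% of the 26 and in 6.749% of all. The GC box was in 33.33% of the 12, 34.62% of the 26 and 32.74% of all. The Ets motif was in 50% (6 of 12), in 34.62% of the 26 and in 19.74% of all. The GC box and Ets motifs were added after the letters of the printed sequences had been read, so their shares are a description only. A match is a run of letters and not a measured binding site, and a missing match says only that these letters are not in this window.

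The arrays gave between 15800 and 16523 detected probes each, where detected means a bead signal above the negative control beads at a detection p under 0.05. Of the 45281 probes, 16317 (36.0%) were detected on at least 3 of the 6 arrays and were tested. Correlations of log2 signals were 0.974 to 0.994 within groups and 0.958 to 0.978 between them, and no array was left out. Of 9 adipocyte markers tested, 1 (Plin1, a lipid droplet protein) was lower with DEX and 0 were higher. Their summed linear signal was 43138 to 46036 on the vehicle arrays and 46775 to 53600 on the DEX arrays. This sum is led by the brightest probes, Adipoq, which changed by -0.01, and Cidec, which changed by 0.49 (limma adjusted p = 0.146). Adipoq lay near the highest signal on the arrays, where a rise can hardly be measured. The other tested adipocyte markers were Plin1 at -1.03, Retn at -0.52, Fabp4 at -0.15, Cebpa at 0.09, Pparg at 0.10, Lipe at 0.11 and Slc2a4 at 0.41. Of 5 preadipocyte and fibroblast markers tested 0 passed in limma (2 with the replicate number as a block), and their summed signal was 20662 to 22428 in vehicle and 20564 to 24377 in DEX. Their changes ran both ways, with Pdgfra at 0.63 (limma adjusted p = 0.0508, 0.0361 with the block), Vim at 0.51 (0.0789 and 0.0401), S100a4 at 0.13, Dlk1 at -0.10 and Thy1 at -0.21. Of the 6 leukocyte markers with a probe, 4 were detected on no array and 1 (Cd14) was tested, and of 5 endothelial and 2 platelet markers 0 could be tested. Itga11 is a gene of fibroblast-like cells, and the part of the cell mixture in its change was not tested. In RNA from a whole culture, fewer cells of a type and less RNA per cell cannot be told apart.

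Of the 35 genes, 17 could be tested by at least 1 of 23 probes. A gene was counted by its probe with the highest mean signal, and 14 of these 17 probes were detected on all 6 arrays. Of the other 18 genes, 13 were detected on no array. They comprised the collagen-binding Itga2, the laminin-binding Itga3, and Itga9, Itgam and Itgax among the alpha chains. Among the beta chains they were Itgb2, which all leukocyte integrins of the alpha L, M, X and D type require, its relative Itgb2l, Itgb7, the partner of alpha E, and Itgb6 and Itgb8, both partners of alpha v. The undetected laminin chains were Lama1, Lama5 and Lamc3. The remaining 5 were detected on 1 or 2 arrays. Itga8, the nephronectin receptor chain, was detected on 1 vehicle and 1 DEX array, Itgad on 1 vehicle array, Itga4 on 1 DEX array, and Itgal and Itgb3 on 2 DEX arrays each. For these 18 genes a change was not measurable at this signal, which does not show that the transcripts were absent.

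**Figure D1:**
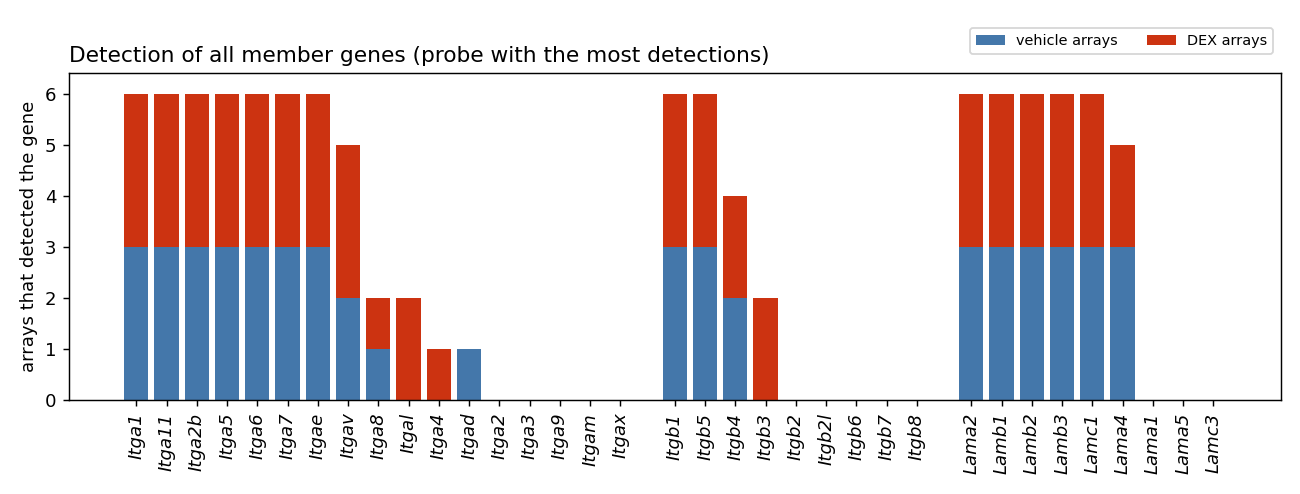
Number of arrays, out of 3 vehicle (blue) and 3 DEX (red), on which each of the 35 genes was detected at a detection p under 0.05, taking each gene's most often detected probe. The tested genes reach 4 or more arrays, and 13 genes have no bar.

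Signals are given here as normalized log2 signals, in which 1 unit is a doubling, and changes as DEX minus vehicle. Over the 17 genes, 9 changes were positive and 8 negative, with a median of 0.01 beside -0.06 over all 9144 tested genes. The median size of the change, regardless of sign, was 0.25 against 0.20 over all genes. With limma and Benjamini-Hochberg adjustment over all tested probes, 0 genes were higher at an adjusted p under 0.05, a threshold that 4.52% of all tested genes passed as higher. One gene was lower (5.88% of the 17), where 3.06% of all genes were lower and 7.58% passed in either direction. At an unadjusted p under 0.05, 4 genes were higher and 3 lower. The matching share over all tested genes was not taken, so this count says nothing about the members as a group. The vehicle and DEX arrays did not overlap for 7 genes (41.2%), 4 higher and 3 lower, against 27.9% of all tested genes (12.2% higher and 15.7% lower), and the difference between these shares was not tested. The 7 genes were Itga5, Itgav, Itgb1 and Lamb1, higher with DEX on every array, and Itga11, Itga2b and Itgb5, lower on every array. With the replicate number as a block in the model, 1 gene was higher and 2 were lower, beside 6.57% and 5.98% of all genes.

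**Figure D2:**
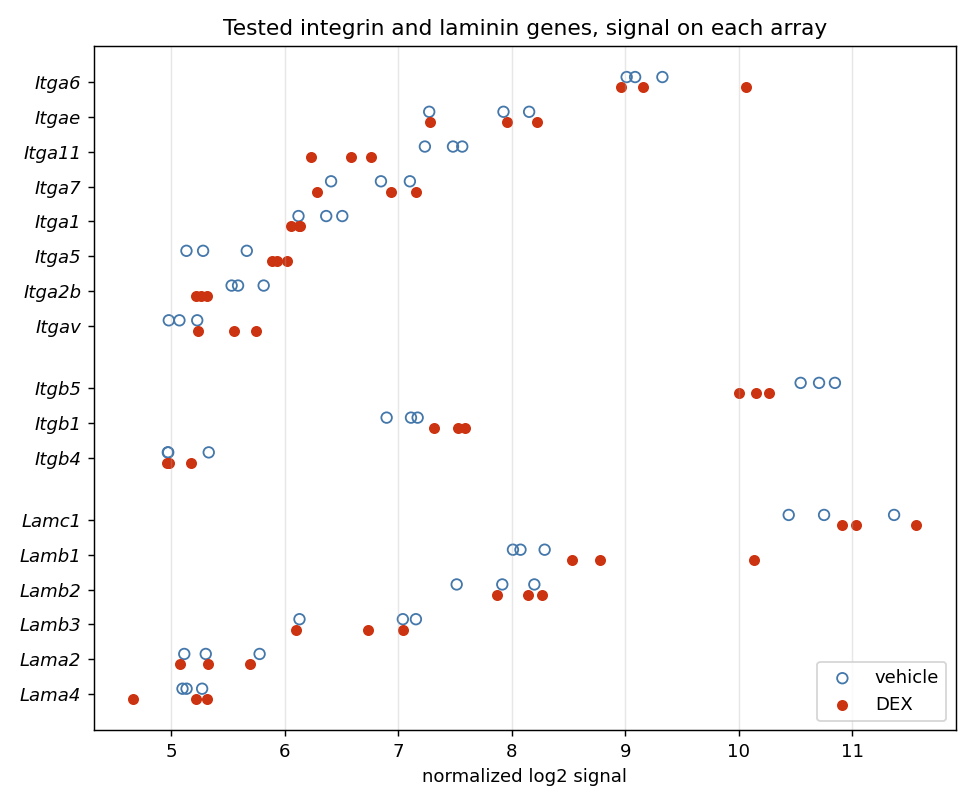
Normalized log2 signal of the 17 tested genes on each array, 1 point per array, open blue for vehicle and filled red for DEX, by the probe with the highest mean signal. The groups of Itga11, Itgb5, Itga2b, Itga5, Itgav, Itgb1 and Lamb1 do not overlap, and 1 DEX array stands apart for Lamb1 (10.13) and Itga6 (10.06). Signals of different genes come from different probes and cannot be set against each other.

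Among the collagen receptors, Itga11 read 7.56, 7.48 and 7.23 on the vehicle arrays and 6.23, 6.59 and 6.76 on the DEX arrays. All DEX arrays lay below all vehicle arrays, and the array with the lowest DEX signal carried the same replicate number as that with the highest vehicle signal. The group means were 7.43 ± 0.17 and 6.53 ± 0.27 (SD, n = 3), a change of -0.90 with a standard error of 0.18 (95% interval -1.30 to -0.50, limma adjusted p = 0.0150), which is 1.87-fold lower. A second Itga11 probe read 5.71, 5.45 and 5.60 in vehicle and 4.80, 4.58 and 4.57 in DEX. It was above background on all vehicle arrays and on no DEX array. Its fold is therefore a bound, set against the lowest detected signal of each array, and with the offset of 16 was at least 1.50-fold lower with DEX (limma adjusted p = 0.00456). This bound holds for that background setting, since the fitted change of -0.94 became -0.48 at an offset of 50 and -0.36 without background correction. The remaining probe of the gene was detected on no array. The call of the first probe was lost when vehicle replicate 1, vehicle replicate 2 or DEX replicate 2 was left out (adjusted p = 0.0608, 0.0808 and 0.0506), with changes between -0.94 and -0.83. This probe also lost its call when no detection filter was set. Without background correction its change was -0.56 (adjusted p = 0.0174). The second probe passed in every one of the 14 alternatives in which it was tested (adjusted p = 9.74e-04 to 0.0355). It had met the minimum of 3 detected arrays only through the vehicle arrays, so these passes are not independent support for the first probe. Itga1, whose product prefers type IV collagen, read 6.51, 6.37 and 6.12 in vehicle and 6.14, 6.06 and 6.13 in DEX. These groups overlapped, and the change was -0.22 (95% interval -0.56 to 0.11, limma adjusted p = 0.453).

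Both collagen-binding alpha chains pair with Itgb1, the beta chain shared by the largest number of integrins. Itgb1 read 6.90, 7.17 and 7.11 in vehicle and 7.59, 7.53 and 7.32 in DEX. The DEX arrays were all higher, by 0.42 ± 0.15 (SE, 95% interval 0.08 to 0.76), which did not pass the adjustment (limma adjusted p = 0.147). A second Itgb1 probe differed by 0.30 (adjusted p = 0.479), and its groups overlapped, since DEX replicate 3 read 6.53 while the other DEX arrays read 7.20 and 7.29. Itga11 and its only known beta partner thus had changes of opposite sign, of which that of Itgb1 did not pass.

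Among the laminin receptors no gene passed. Itga6, the alpha chain that 3T3-L1 cells gain on differentiation, read 9.33, 9.01 and 9.09 in vehicle and 9.16, 8.96 and 10.06 in DEX. DEX replicate 3 was above all other arrays, while the other DEX arrays lay within or below the vehicle range. The change of 0.25 (95% interval -0.34 to 0.84, limma adjusted p = 0.65) became -0.08 without that array. Itga7, a laminin receptor chain best known from muscle, read 6.41, 6.85 and 7.10 in vehicle and 6.29, 6.94 and 7.15 in DEX. The 2 triplets were nearly the same, with a change of 0.01 (95% interval -0.56 to 0.57), which turned negative with median scaling or array weights. Itgb4, the partner of alpha6 in epithelial hemidesmosomes, was detected on 4 of the 6 arrays with signals of 4.96 to 5.33, close to the detection floor of 4.97 to 5.05. Its change was -0.05 (adjusted p = 0.895).

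Among the receptors for fibronectin, vitronectin and other proteins that carry the RGD motif, 4 genes had groups that did not overlap. Over all tested genes the groups did not overlap for 27.9%, and the share within this set of receptors was not taken. Itga5, Itgav and Itga2b had mean signals of 5.65, 5.30 and 5.45, near the detection floor of 4.97 to 5.05. Itga5 read 5.28, 5.67 and 5.13 in vehicle and 6.02, 5.89 and 5.93 in DEX. The DEX arrays were close together and all higher. The change was 0.58 ± 0.17 (SE, 95% interval 0.21 to 0.96), or 1.50-fold. The limma adjusted p was 0.0739 without a block and 0.0490 with the replicate number as a block. The change was 0.35 at an offset of 50 (adjusted p = 0.117) and 0.23 without background correction (adjusted p = 0.162). A second Itga5 probe was detected on 1 array of each group and not tested. Itgav, the common alpha chain of vitronectin receptors, read 5.23, 5.07 and 4.98 in vehicle, where 2 of the 3 arrays detected it, and 5.23, 5.55 and 5.74 in DEX. The groups touched at 5.23, and the change of 0.42, or 0.15 without background correction, did not pass (limma adjusted p = 0.198 and 0.369).

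Itgb5, which forms a vitronectin receptor with alpha v, moved the other way. It read 10.71, 10.85 and 10.55 in vehicle and 10.01, 10.27 and 10.15 in DEX. All DEX arrays were lower, by a mean of 0.56 (SE 0.15, 95% interval of the change -0.90 to -0.22), or 1.47-fold. The limma adjusted p was 0.0601 without a block and 0.0352 with the replicate block. It lay under 0.05 in 7 of the 15 alternatives tried, among them the authors' own processed values. Itga2b, the alpha chain of the platelet fibrinogen receptor, read 5.81, 5.59 and 5.53 in vehicle and 5.21, 5.31 and 5.26 in DEX, all lower but not past the adjustment (change -0.38, adjusted p = 0.161, and -0.14 without background correction). Its partner Itgb3 was detected on no vehicle array and 2 DEX arrays, and none of the platelet markers was detected on enough arrays to be tested.

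**Figure D3:**
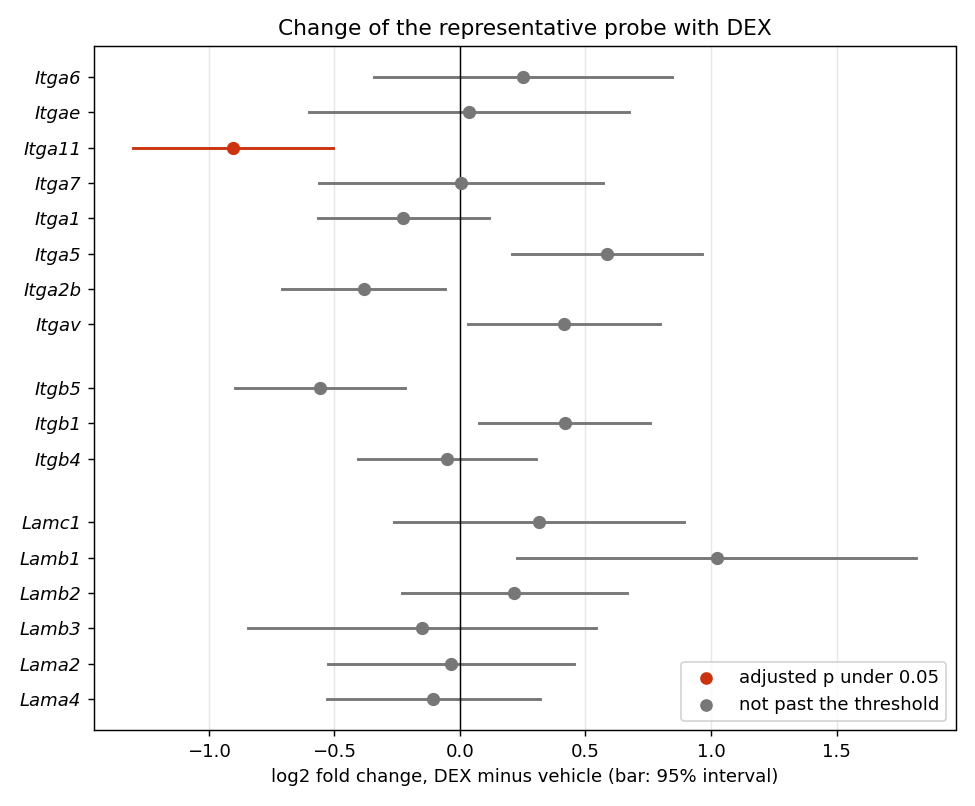
Change of each of the 17 tested genes on the log2 scale, DEX minus vehicle, with its 95% interval from limma. Itga11 (red) is the gene past an adjusted p of 0.05, at -0.90, and Lamb1 has the interval farthest to the right, 0.23 to 1.82.

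Of the integrin chains typical of leukocytes, 1 was testable. Itgae, the alpha chain that binds E-cadherin on intraepithelial lymphocytes, read 7.27, 7.93 and 8.15 in vehicle and 7.28, 7.96 and 8.22 in DEX. The signals of the same replicate number were almost equal across the groups while replicates within a group lay far apart. The change was 0.04 (95% interval -0.60 to 0.67, limma adjusted p = 0.96) and turned negative with median scaling or array weights. Further probes of the same transcript changed by -0.17 and -0.08. The other 3 Itgae probes, annotated to another RefSeq transcript, were detected on 1 array between them, and Itgb7, with which alpha E forms its receptor, was detected on none.

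Among the laminin chains, Lamb1 read 8.29, 8.08 and 8.01 in vehicle and 8.53, 8.78 and 10.13 in DEX. Every DEX array was above every vehicle array, but DEX replicate 3 exceeded the other DEX arrays by more than they exceeded the vehicle arrays. The change was 1.02 with a standard error of 0.35 (95% interval 0.23 to 1.82, 2.03-fold) and did not pass (limma adjusted p = 0.129). Without DEX replicate 3 it was 0.53 (adjusted p = 0.0905). Without DEX replicate 1 it was 1.33 and passed (adjusted p = 0.0413). With array weights it was 0.77 and passed (adjusted p = 0.0302).

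Lamc1, the gamma chain of nearly all laminins, read 11.37, 10.75 and 10.44 in vehicle and 11.57, 10.91 and 11.04 in DEX. Each DEX array was above the vehicle array of its number, and the groups overlapped. The change was 0.32 (limma adjusted p = 0.542, 0.215 with the replicate block), and a second probe changed by 0.38. Lamb2, which can take the place of Lamb1 in laminin, read 8.20, 7.92 and 7.51 in vehicle and 8.27, 8.15 and 7.87 in DEX, a change of 0.22 (adjusted p = 0.597). Lamb3, the beta chain of the laminin of epithelial anchorage, read 6.13, 7.04 and 7.16 in vehicle and 6.10, 6.73 and 7.05 in DEX, a change of -0.15 (adjusted p = 0.836). The groups overlapped for both. The alpha chains Lama2 and Lama4, which mesenchymal basement membranes use, had signals of 4.66 to 5.78, near the detection floor, with changes of -0.03 and -0.10 that did not pass. The other laminin alpha chains on the array, Lama1 and Lama5, were not detected.

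Some genes differed more between replicate numbers than between treatments. The ranking of replicates 1 to 3 was identical in vehicle and DEX for 5 of the 17 genes (29.4%), namely Itgae, Itga7, Lamb2, Lamb3 and Lama2, and for 27.4% of all tested genes, so the share was near the background. The residual SD of Itgae was 0.47 without and 0.02 with the replicate number as a block, and that of Lamb3 was 0.52 and 0.10. For Itga11 the opposite held, with 0.23 without and 0.30 with the block. Over the 17 genes the median residual SD was 0.26 without and 0.14 with the block, and over all genes 0.20 and 0.16. What the replicate numbers stand for is not given in the sources used here.

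**Figure D4:**
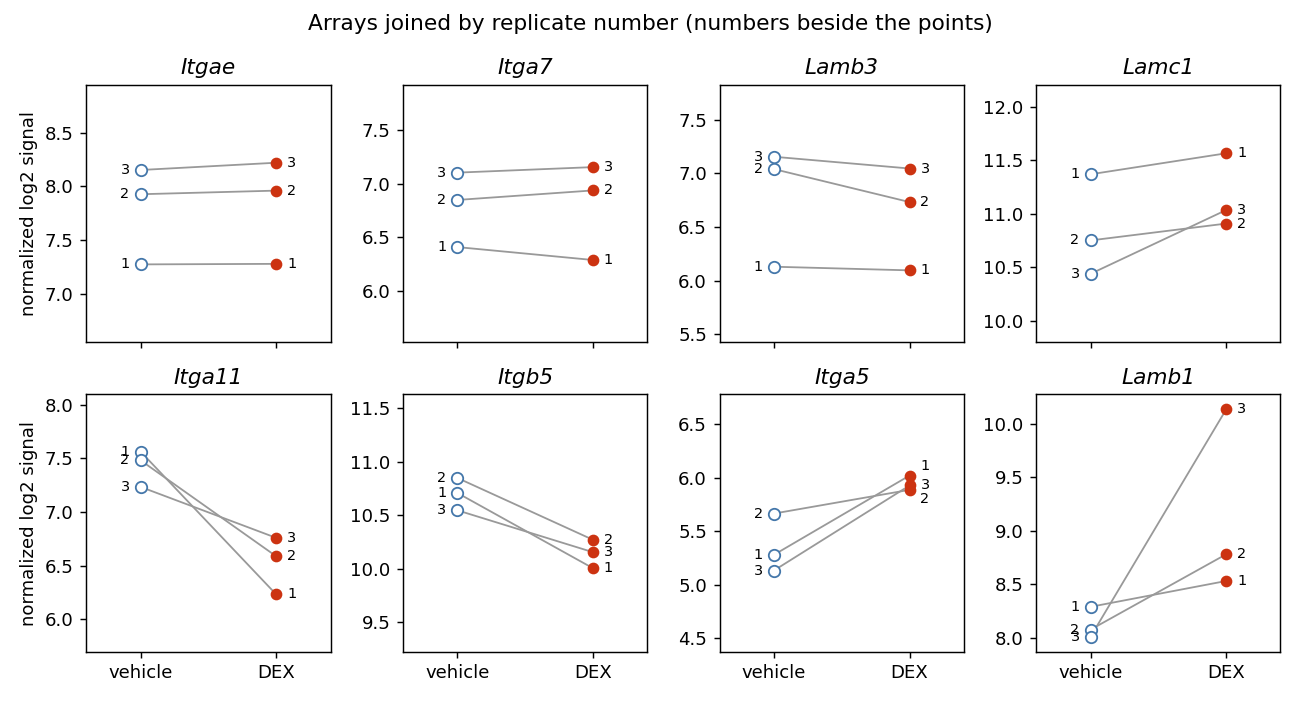
Normalized log2 signal of 8 genes in vehicle and DEX, with arrays of the same replicate number joined and the number beside each point. The genes were chosen after their values were seen. Lines for Itgae and Itga7 are nearly flat and apart from each other, and those of Itga11 and Itgb5 all fall. Those of Lamb1 all rise, that of replicate 3 the most, from 8.01 to 10.13.

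Genes that work with integrins and laminins were read from 4 lists. Of 85 listed genes, 64 were tested, 9 (14.1%) were higher and 3 (4.69%) lower, against 4.52% and 3.06% of all tested genes, and 52 did not pass. Of 28 tested cytoplasmic adaptors and kinases, which tie integrin tails to actin, 5 were higher and 0 lower, with a list median of 0.10. Lpxn, a relative of the focal adhesion protein paxillin, was detected on no vehicle array and on all DEX arrays, at 6.51, 6.87 and 6.29. It met the minimum of 3 detected arrays only through the DEX arrays. Its p-value and its place among the 9 higher genes are therefore not independent of that filter. With the offset of 16 it was at least 2.90-fold higher with DEX (limma adjusted p = 3.00e-04). The size depends on the background setting, with a fitted change of 1.80 on the log2 scale that became 1.07 at an offset of 50 and 0.77 without background correction, past the threshold in both. Tns1, a tensin that links beta chains to actin, read 9.77, 9.90 and 9.71 in vehicle and 11.09, 11.18 and 11.64 in DEX, 2.85-fold higher (adjusted p = 7.58e-04). Lims2, a partner of integrin-linked kinase, read 7.87, 7.13 and 7.35 in vehicle and 9.26, 8.97 and 8.66 in DEX. It was 2.85-fold higher (adjusted p = 0.00330), and 2 further probes passed in the same direction. The groups of Lpxn, Tns1 and Lims2 did not overlap. Tns2, another tensin, was higher by 0.97 (adjusted p = 0.0221), though its second probe, at 0.67, did not pass (adjusted p = 0.0985). It lost its call in 5 of 15 alternatives, among them each vehicle array left out, and was 0.62 without background correction (adjusted p = 0.0398). Kank1, a talin-binding protein named here after its value was seen because it completes the count, was higher by 0.74 (adjusted p = 0.0237). Vcl and Zyx, both focal adhesion proteins, changed by 0.00 and 0.20 and did not pass, and the sign for Vcl turned with median scaling.

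Of 17 tested matrix ligands and basement membrane partners, 2 were higher and 2 lower, with a list median of 0.05. Col4a1, a chain of the type IV collagen that shares the basement membrane with laminins, read 12.51, 12.16 and 12.11 in vehicle and 13.27, 13.38 and 13.81 in DEX. The groups did not overlap, and it was 2.34-fold higher (limma adjusted p = 0.00396). Its partner chain Col4a2 was 1.80-fold higher (adjusted p = 0.0452) but lost its call in 7 of 15 alternatives. Vcam1, the ligand of the alpha4 integrins on the surface of other cells, read 8.28, 8.79 and 8.78 in vehicle and 7.18, 7.56 and 7.30 in DEX, 2.41-fold lower (adjusted p = 0.00309). A second, dimmer Vcam1 probe changed by -0.12 (adjusted p = 0.752). Tgfb1, whose latent form is activated by alpha v integrins, was 1.65-fold lower (change -0.72, adjusted p = 0.0284) and lost its call in 7 of 15 alternatives, among them no background correction (change -0.30, adjusted p = 0.0784). The alpha4 chain itself was not testable here. Mfge8, a secreted RGD protein, and Col18a1, a basement membrane collagen, did not pass, with changes of 0.00 and 0.12 whose signs turned in other settings.

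Of 8 tested receptors that bind laminin or matrix beside integrins, 1 was higher and 0 lower, with a list median of 0.17. Sdc4, a heparan sulfate proteoglycan of focal adhesions, read 8.37, 8.39 and 8.79 in vehicle and 9.77, 10.10 and 9.95 in DEX. All DEX arrays lay above all vehicle arrays, and the gene was 2.69-fold higher (limma adjusted p = 8.79e-04). Dag1, the laminin receptor dystroglycan, and Gpc1, a glypican, changed by 0.13 and 0.15 and did not pass, and both signs turned with median scaling. Of 11 membrane partners, all tested, 1 was higher and 1 lower, with a list median of -0.19. Slc3a2, the heavy chain of an amino acid transporter that binds beta1 integrin, was 1.82-fold higher (adjusted p = 0.0252), and Emp1, a tetraspan membrane protein, was 1.66-fold lower (adjusted p = 0.0357). Both lost their calls in 6 of 15 alternatives. Cd63, a tetraspanin, and Cav1, the coat protein of caveolae, changed by -0.32 and -0.04 and did not pass. Dimmer Cd63 probes changed by 0.14 and -0.29 and did not pass either (limma adjusted p = 0.711 and 0.397). Cav1 lay near the highest signal on the arrays, 14.57, where a rise can hardly be measured. With the replicate block, 12 listed genes were higher and 3 (4.69%) lower, against 6.57% and 5.98% of all tested genes in the same fit. The 3 genes added were Sdc1, a syndecan (0.53, adjusted p = 0.0606 without and 0.0367 with the block), Ilk, the integrin-linked kinase (0.58, 0.117 and 0.0381), and Itgbl1, a secreted protein resembling beta chains (0.95, 0.0603 and 0.00257). A second Sdc1 probe changed by 0.25 with overlapping groups and passed in neither fit (limma adjusted p = 0.432 without and 0.342 with the block).

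**Figure D5:**
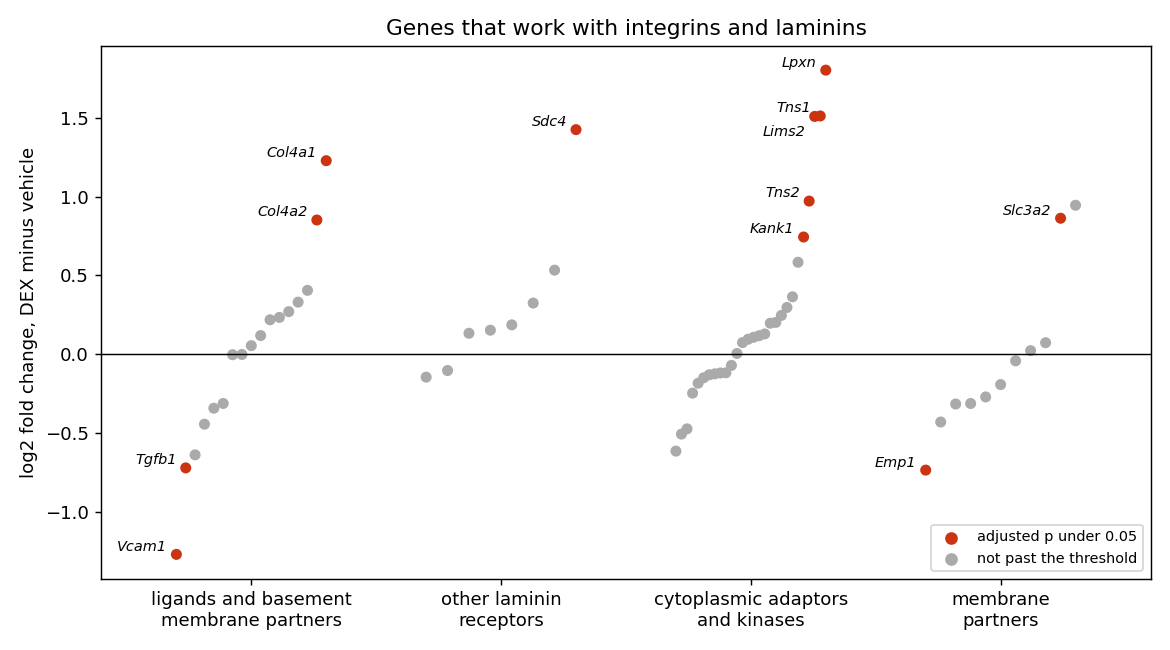
Change of the 64 tested list genes on the log2 scale, DEX minus vehicle, 1 point per gene, sorted within each of the 4 lists. Red points passed an adjusted p of 0.05, 9 of them above 0 and 3 below, and grey points did not. The point of Lpxn is the fitted change, while its measured fold is a lower bound because no vehicle array detected it.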

How the data were processed

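RNA of 3T3-L1 adipocytes treated with vehicle or DEX was measured on 6 arrays. For each probe on each array the authors deposited the mean intensity of its beads, without background correction or normalization. Beside it stands a deposited detection p-value, which compares the probe with negative control beads. A set of intensity values that the authors had pre-processed with lumi was also deposited and served as an alternative. The lumi settings are not given in the sources read.

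The background was corrected with limma 3.58.1 (R 4.3.3) (normexp model, control beads inferred through the detection p-values, offset 16), and the arrays were then quantile-normalized on the log2 scale. Folds of dim probes are compressed by the offset, and the number of arrays limits the precision. Probes detected (p under 0.05) on 3 or more arrays were tested with lmFit and eBayes, two-sided, without a block, and p-values were adjusted by Benjamini-Hochberg over the tested probes. The fit was tested on simulated data. Where no array of 1 group detected a probe, the fold is a lower bound against each array's lowest detected signal. Of the probes, 34885 carry 1 gene symbol, 18 several and 10378 none. Symbols were checked through Entrez IDs against the GRCm38.p6 RefSeq table, which changed 0 of them.

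The labels number the replicates in both groups. Deviations from the group means had a correlation of 0.440, 0.296 and 0.249 for same-numbered arrays. For arrays with unequal numbers it ran from -0.370 to 0.104. Every same-number pair lay above every pair with unequal numbers. The deviations of a group sum to 0, which by itself lowers the correlations of unequal numbers once those of equal numbers are positive. Neither labels nor Methods state a pairing, so it is a possible reading of the data, and the main fit has no block. A fit with the number as a block is given as an alternative where it changes a call.

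The members and lists were chosen with earlier results of these data known. Genes named with values on every array were those with a probe past the threshold, those whose groups did not overlap, and the 6 other tested genes with the highest mean signal. The values of Itga1 are shown as well. In each list the 4 largest changes past the threshold were named, together with the 2 brightest genes that missed it. Alternatives covered scaling, background correction and offset, the detection filter, the lumi values, the block, array weights, the prior, every probe counted, and each array left out. Figures were drawn with Python 3.11.15, pandas 2.3.3, numpy 2.4.6 and matplotlib 3.10.9.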

Additional observations from a re-analysis of the deposited data

Results flagged for a closer look

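A signal appeared outside the tests for the only probes of Itgal, the alpha chain of a leukocyte integrin, and Itgb3, the beta chain of the platelet fibrinogen and vitronectin receptors. Each was detected on 2 DEX arrays and 0 vehicle arrays and so missed the minimum of 3 arrays. The deposited signals of Itgal were 107, 95.3 and 107 in vehicle and 114, 97.3 and 108 in DEX, with detection p-values of 0.0588, 0.154 and 0.0620 in vehicle and 0.0182, 0.104 and 0.0310 in DEX. Those of Itgb3 were 107, 93.6 and 108 in vehicle and 111, 97.2 and 109 in DEX, with detection p-values of 0.0588, 0.183 and 0.0598 in vehicle and 0.0310, 0.106 and 0.0235 in DEX. In both genes replicates 1 and 3 lay close to the detection threshold in both groups and crossed it in DEX, and the difference was not tested. The rule of 2 DEX and 0 vehicle arrays was chosen after the values were seen.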

How the results depend on the processing

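The count of 1 integrin or laminin gene lower with DEX became 2 (Itga11 and Itgb5) with median scaling, no background correction, an offset of 50, the authors' lumi values, the replicate block, array weights or a trended robust prior, 2 (both Itga11) when every probe was counted, 0 without the detection filter, and 0 to 1 when single arrays were left out. The count of 0 higher became 1 (Itga5) with the replicate block and 3 (Itgav, Itgb1 and Lamb1) with array weights, and was 0 to 1 with single arrays left out (Lamb1 without DEX replicate 1). The replicate block changed no other call among the 17 genes. Calls over all 9144 tested genes moved with the setting too. They were 413 higher and 280 lower in the main fit, 601 and 547 with the block, and 792 and 847 with array weights. Without vehicle replicate 1 they were 319 and 161, and without vehicle replicate 2 they were 246 and 85. The part of these shifts in the member and list counts was not tested. The median change of the tested genes was -0.17 to 0.12 with single arrays left out. Among the list genes, 3 lower became 6 with array weights and 1 when no detection filter was set, and single arrays left out gave 5 to 10 higher and 1 to 3 lower. Without vehicle replicate 2 these were 5 and 1, and without vehicle replicate 1 they were 8 and 1. Some changes close to 0 turned sign, and the cause was not tested. With median scaling, which moved the median of all genes to -0.15, Itgae changed by -0.081, Itga7 by -0.067, Col18a1 by -0.043, Dag1 by -0.036, Gpc1 by -0.019 and Vcl by -0.15. With array weights, Itgae changed by -0.053, Itga7 by -0.031, Mfge8 by 0.12, Col18a1 by -0.10, Dag1 by -0.0040 and Vcl by -0.10. With single arrays left out, the ranges were -0.083 to 0.47 for Itga6, -0.22 to 0.31 for Itgae, -0.18 to 0.26 for Itga7, -0.47 to 0.11 for Lamb3, -0.34 to 0.32 for Mfge8, -0.090 to 0.31 for Col18a1, -0.066 to 0.28 for Dag1 and -0.18 to 0.11 for Vcl. With 3 arrays per group, changes of the size of Itga5 and Itgb5 lay at the edge of what the test could call, and the genes near the detection floor could not be ranked or compared.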
